A study of Homo sapiens with 12 samples.

Results

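Glycolysis and the transcriptional response to low oxygen were followed through 35 genes in 624Mel, an established human melanoma cell line. The genes were chosen by name: both HIF alpha subunits, the enzymes from hexokinase to lactate dehydrogenase, kinases that steer glycolytic flux, and known targets of the hypoxia-inducible factors. Earlier results of these data were known when they were chosen. Of the 40173 gene IDs in the expression table, 12773 reached a mean of 2 TPM (transcript abundance scaled to library size and transcript length) in at least 1 condition and were tested, among them 33 of the 35 genes. The cells carried either a control siRNA (siCTRL) or an siRNA against MITF (siMITF), the lineage transcription factor of melanocytes. Both siRNAs were used without IFNγ and with 5 ng/mL IFNγ, added 24 h after transfection and left for 24 h. The conditions are called siCTRL, siCTRL + IFNγ, siMITF and siMITF + IFNγ, and each holds 3 libraries. All libraries come from this 1 line, in which MITF RNA was reduced but not abolished. The study asked how melanoma cells that have lost MITF respond to IFNγ.

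Glycolysis splits glucose into pyruvate in the cytosol. Lactate dehydrogenase then reduces pyruvate to lactate, while pyruvate dehydrogenase sends it into the mitochondrion. HIF1A and EPAS1 encode the oxygen-labile alpha subunits of the hypoxia-inducible factors (HIF), which are hydroxylated and degraded when oxygen is present and otherwise bind short ACGTG or GCGTG elements in the promoters of glycolytic, vascular and mitophagy genes. The alpha subunits are controlled mainly at the level of the protein, which RNA does not show. TPM is a share of all measured RNA corrected for transcript length, so it can be set side by side between genes, and a lower share of one cell state and less RNA per cell cannot be told apart.

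MITF itself stood at 187, 229 and 217 TPM in siCTRL and 158, 246 and 243 in siCTRL + IFNγ, against 36.0, 49.7 and 41.7 in siMITF and 37.5, 55.1 and 51.3 with siMITF + IFNγ. It was lower in every siMITF library (log2 fold change -2.29 ± 0.19, adjusted p = 1.16e-06 without IFNγ, and -2.14 ± 0.19 with IFNγ). All 9 melanocytic markers were measured, and without IFNγ 7 of them were lower with siMITF (13.8% of all IDs). The other two were higher (21.0% of all IDs), S100B at 167 against 81.8 TPM and S100A1 at 239 against 90.2 TPM. All 8 genes of an IFNγ response list were higher with IFNγ in both siRNA backgrounds. Defining markers of other cell types were low: KRT1 and CD3E were listed at 0 in every library, and the 7 fibroblast markers summed to between 4.03 and 12.5 TPM. That sum was 6.25 to 7.83 TPM in siCTRL and 10.3 to 12.5 TPM in siMITF, without overlap, and both of the fibroblast markers that could be tested, LUM and PDGFRA, were higher with siMITF, although PDGFRA reached 2 TPM in siMITF alone. It was 4.03 to 4.44 TPM in siCTRL + IFNγ and 6.43 to 7.33 TPM in siMITF + IFNγ. The exceptions to low levels were KRT10, which reached 60.8 TPM, and the lysosomal gene CD68, which reached 94.3 TPM and took the summed leukocyte and endothelial list from 64.4 to 90.1 TPM in siCTRL to between 31.3 and 33.9 TPM in siMITF. LYZ, the other tested gene of that list, went the other way with siMITF. It averaged 4.74 against 2.44 TPM without IFNγ and 3.03 against 1.46 TPM with IFNγ. The part of these genes in the results was not tested. RNA encoded by the mitochondrial genome took from 7.42% to 16.9% of the listed TPM, lowest in replicate 2 of each condition and highest in replicate 1 of both IFNγ conditions. Replicate 1 also gave the lowest of the 3 values for 28 of the 33 tested genes in siCTRL + IFNγ and for 25 of 33 in siMITF + IFNγ.

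siMITF lowered a part of the set. IFNγ moved few of its genes, a share near or below that of all tested IDs. Passing the test means an adjusted p under 0.05 in limma with Benjamini-Hochberg adjustment over all tested gene IDs. Without IFNγ, 13 of the 33 genes were lower and 2 were higher with siMITF (P4HA2 and EGLN3, the latter tested only through its siMITF level), where 13.8% of all tested IDs were lower and 21.0% higher. With IFNγ, siMITF left 10 lower and 3 higher, against 14.7% and 18.4% of all IDs. IFNγ alone changed 1 gene upward and 2 downward in siCTRL cells (6.80% and 6.14% of all IDs), and 3 upward and 2 downward in siMITF cells (7.99% and 12.2%). Both treatments together left 16 genes lower and 3 higher than in siCTRL, against 23.4% and 21.1% of all IDs. When the replicate number entered the fit as a block, IFNγ counts were 1 upward and 5 downward in siCTRL cells, where 3281 of 12773 IDs passed. They were 5 upward and 5 downward in siMITF cells, where 4556 of 12773 IDs passed. Leaving out 1 library gave 1 to 5 genes for IFNγ in siCTRL cells (1 without siCTRL replicate 2 or 3 or siCTRL + IFNγ replicate 1, and 5 without siCTRL + IFNγ replicate 2) and 2 to 6 in siMITF cells (2 without siMITF replicate 1 or 3, and 3 without siCTRL replicate 1 or 3, siMITF replicate 2 or siMITF + IFNγ replicate 3). The median log2 fold change of the 33 genes was -0.11 with siMITF, -0.13 with IFNγ and -0.22 with both, and that of all tested IDs was 0.06, -0.07 and -0.04. Libraries of the compared conditions did not overlap for 19 genes with siMITF (55.0% of all IDs), 15 with siMITF under IFNγ (38.3%), 11 with IFNγ in siCTRL cells (29.7%), 10 with IFNγ in siMITF cells (40.5%) and 21 with both treatments (53.1%), so that non-overlap by itself was common. These comparisons share libraries, siCTRL in particular, so their values are given side by side only.

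**Figure D1:**
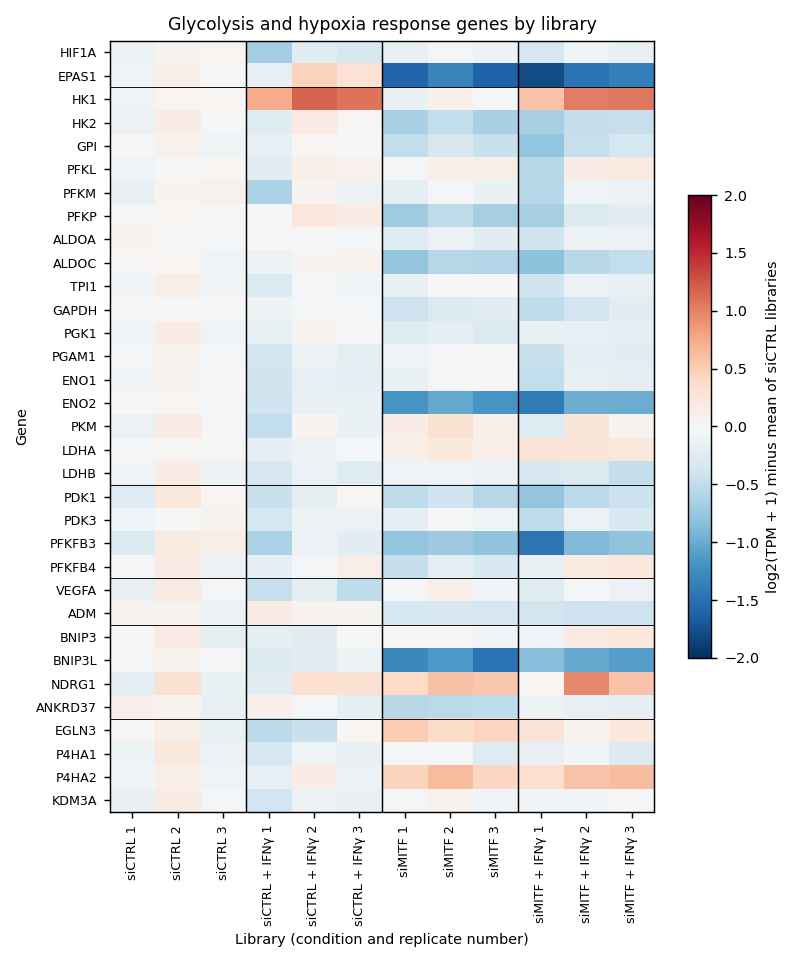
Heat map of the 33 tested genes (rows, grouped by role) in the 12 libraries (columns, 3 per condition), coloured by log2(TPM + 1) minus the mean of the siCTRL libraries. EPAS1, ENO2 and BNIP3L are blue in all 6 siMITF libraries, and HK1 is red in all 6 libraries with IFNγ.

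Most changes were small. At the stricter rule, which also asks for a 2-fold change, siMITF changed EPAS1, ENO2 and BNIP3L without IFNγ (6.10% of all IDs passed that rule) and EPAS1 with IFNγ (5.68%). IFNγ changed HK1 in siCTRL cells (2.52%) and none of the genes in siMITF cells (2.95%). The combination changed EPAS1, ENO2 and PFKFB3 relative to siCTRL (8.75%). All fold changes are on the log2(TPM + 1) scale with the standard error, which understates changes of genes near or below 1 TPM.

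The transcription factors came first. EPAS1, which encodes HIF-2 alpha and lies at chr2:46293667-46386697, was the most reduced gene of the set. Its level was 23.2, 26.4 and 24.3 TPM in siCTRL and 21.9, 34.1 and 30.1 in siCTRL + IFNγ, against 7.54, 9.09 and 7.39 in siMITF and 6.42, 8.18 and 8.90 with siMITF + IFNγ. The 6 siMITF libraries lay below all 6 siCTRL libraries. The mean fell from 24.6 ± 1.65 TPM (SD, n = 3) to 8.004 ± 0.942 without IFNγ (log2 fold change -1.51 ± 0.16, adjusted p = 9.42e-06) and from 28.7 ± 6.23 to 7.83 ± 1.28 with IFNγ (log2 fold change -1.74 ± 0.16, adjusted p = 3.01e-06). IFNγ did not move it past the test in siCTRL cells, with a log2 fold change of 0.19 ± 0.16 and overlapping libraries.

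HIF1A, the gene of HIF-1 alpha, behaved otherwise. It stood at 113, 125 and 124 TPM in siCTRL and 73.9, 103 and 96.3 in siCTRL + IFNγ, against 109, 119 and 113 in siMITF and 95.4, 113 and 109 with siMITF + IFNγ. Without IFNγ the siMITF and siCTRL libraries overlapped (log2 fold change -0.09 ± 0.11, adjusted p = 0.597). IFNγ lowered HIF1A in siCTRL cells (log2 fold change -0.42 ± 0.11, adjusted p = 0.0299), where all 3 IFNγ libraries lay below the 3 siCTRL libraries, but the call was lost without siCTRL replicate 2 or 3 or without siCTRL + IFNγ replicate 1 or 3. In siMITF cells its IFNγ difference was -0.10 ± 0.11 and did not pass. The difference between these effects did not pass either (interaction 0.31 ± 0.16, adjusted p = 0.733). Blocking on the replicate number, HIF1A was higher in siMITF + IFNγ than in siCTRL + IFNγ (log2 fold change 0.23, adjusted p = 0.0185 against 0.149 without the block), and lower in siMITF + IFNγ than in siCTRL (-0.19, 0.0332 against 0.192).

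As a share of the summed TPM of both alpha subunits, EPAS1 took 16.9% ± 0.555 (SD, n = 3) in siCTRL and 23.8% ± 0.991 in siCTRL + IFNγ, against 6.57% ± 0.488 in siMITF and 6.86% ± 0.635 with siMITF + IFNγ. The shares of the conditions with and without siMITF did not overlap in any library. Other genes encode the machinery that hydroxylates, ubiquitinates and partners the alpha subunits. Of 19 listed regulators, 17 were tested, and 0 passed for siMITF without IFNγ or for IFNγ in either background (limma). Of all IDs, 21.0% were higher and 13.8% lower for siMITF. For IFNγ, 6.80% were higher and 6.14% lower in siCTRL cells, and 7.99% and 12.2% in siMITF cells. At an unadjusted p under 0.05 there were 3, 0 and 3 regulators in these comparisons. The share of all IDs at that level is not given, so these counts cannot be set against it and are not read as a result. With the replicate block 5 were higher with siMITF without IFNγ (CREBBP, EP300, VHL, OS9 and SIAH2, with adjusted p from 0.00693 to 0.0381 against 0.0788 to 0.197 without it), and 1 and 2 passed for IFNγ in siCTRL and siMITF cells. In these block comparisons 6094, 3281 and 4556 of 12773 IDs passed. With IFNγ, siMITF lowered EGLN1, the main HIF prolyl hydroxylase (log2 fold change -0.37 ± 0.13, where 14.7% of all IDs were lower). It raised VHL, the receptor subunit of the HIF ubiquitin ligase (0.29 ± 0.10, where 18.4% were higher). With the block 4 regulators passed there, beside 5912 of 12773 IDs.

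Upstream sequence is shown for 6 genes: 4 of those that were lower with siMITF in every siMITF comparison, and the lactate dehydrogenase pair, which went in opposite directions under the combination. Each run is the 250 bases before the RefSeq start (GRCh38.p14), 5′ to 3′ on the gene's strand, and capitals mark ACGTG or GCGTG on either strand, the 2 forms of the core HIF element. EPAS1 is at chr2:46297157-46297406 on the plus strand, ENO2 at chr12:6914330-6914579 on the plus strand, ALDOC at chr17:28576896-28577145 on the minus strand, HK2 at chr2:74833877-74834126 on the plus strand, LDHA at chr11:18394313-18394562 on the plus strand and LDHB at chr12:21657843-21658092 on the minus strand.
EPAS1: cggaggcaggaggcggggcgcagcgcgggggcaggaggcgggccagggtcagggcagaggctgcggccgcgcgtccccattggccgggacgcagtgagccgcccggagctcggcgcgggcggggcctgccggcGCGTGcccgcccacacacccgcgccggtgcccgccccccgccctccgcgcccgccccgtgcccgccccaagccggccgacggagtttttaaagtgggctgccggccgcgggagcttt
ENO2: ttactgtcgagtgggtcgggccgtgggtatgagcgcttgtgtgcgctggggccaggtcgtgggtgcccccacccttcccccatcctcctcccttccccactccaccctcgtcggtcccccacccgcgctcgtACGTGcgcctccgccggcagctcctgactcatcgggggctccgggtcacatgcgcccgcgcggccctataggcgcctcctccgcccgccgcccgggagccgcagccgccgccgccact
ALDOC: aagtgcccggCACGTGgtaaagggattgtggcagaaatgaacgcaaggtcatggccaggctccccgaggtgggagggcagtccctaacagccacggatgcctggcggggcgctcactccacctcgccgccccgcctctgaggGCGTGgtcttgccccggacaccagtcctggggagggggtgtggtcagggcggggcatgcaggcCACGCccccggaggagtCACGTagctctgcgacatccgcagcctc
HK2: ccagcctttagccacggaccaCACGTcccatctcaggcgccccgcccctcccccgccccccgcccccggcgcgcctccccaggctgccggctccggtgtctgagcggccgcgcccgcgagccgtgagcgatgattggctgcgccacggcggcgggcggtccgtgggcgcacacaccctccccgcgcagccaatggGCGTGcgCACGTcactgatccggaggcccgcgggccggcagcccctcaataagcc
LDHA: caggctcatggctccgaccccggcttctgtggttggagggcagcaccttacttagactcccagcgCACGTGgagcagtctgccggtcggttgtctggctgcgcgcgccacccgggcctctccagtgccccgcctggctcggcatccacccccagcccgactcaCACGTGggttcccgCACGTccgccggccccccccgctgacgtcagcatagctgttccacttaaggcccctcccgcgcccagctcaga
LDHB: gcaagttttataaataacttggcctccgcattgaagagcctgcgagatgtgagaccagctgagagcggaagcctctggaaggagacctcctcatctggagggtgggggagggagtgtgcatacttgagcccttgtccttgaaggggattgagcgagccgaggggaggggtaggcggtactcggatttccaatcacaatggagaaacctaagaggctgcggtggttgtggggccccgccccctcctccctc

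The runs differ in how often the letters occur. LDHA holds 5 matches to ACGTG counted over both strands, 4 of which lie in its 2 copies of the palindrome CACGTG, while LDHB holds neither ACGTG nor GCGTG. ALDOC holds 3 matches to ACGTG and 2 to GCGTG, HK2 holds 2 and 1, ENO2 holds 1 ACGTG, and EPAS1 holds 1 GCGTG. GPI, PFKP, GAPDH, PFKFB3, ADM and BNIP3L were also lower in every siMITF comparison and are not shown. Of these, GAPDH and PFKFB3 hold 2 matches to ACGTG each, GPI holds 1, ADM holds 1 GCGTG, and PFKP holds neither. Over the 32 genes of the set with an entry in the RefSeq table, 15 (46.9%) held ACGTG, against 21.0% of 15399 promoters in the table and 24.2% of the tested genes among them. GCGTG was found in 14 (43.8%), against 40.5% and 48.4%. Of the E-boxes that MITF is known to bind, CACGTG, which contains ACGTG, was found in 6 (18.8%, against 7.93% and 9.35%) and CATGTG in 1 (3.13%, against 6.86% and 5.31%). These are letters in a window, not binding. VEGFA, BNIP3L and NDRG1 have no entry in the table.

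Hexokinase opens glycolysis by phosphorylating glucose, and its isozymes responded to different treatments. HK1, at chr10:69269984-69401884, is the widely expressed form. It stood at 63.0, 68.4 and 68.5 TPM in siCTRL and 112, 152 and 143 in siCTRL + IFNγ, against 60.9, 71.6 and 65.8 in siMITF and 99.4, 137 and 139 with siMITF + IFNγ. All 6 IFNγ libraries lay above all 6 libraries without IFNγ. IFNγ raised HK1 from 66.6 ± 3.15 to 136 ± 21.0 TPM in siCTRL cells (log2 fold change 1.00 ± 0.14, adjusted p = 0.000271) and from 66.1 ± 5.36 to 125 ± 22.1 in siMITF cells (log2 fold change 0.89 ± 0.14, adjusted p = 0.000528). The siMITF difference was near 0 (-0.01 ± 0.14 without IFNγ), and HK1 was higher in the IFNγ comparisons under all 29 alternative analyses.

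HK2, the inducible hexokinase and a textbook HIF target, was lowered by siMITF and not by IFNγ. It stood at 70.9, 85.9 and 75.1 TPM in siCTRL and 65.3, 86.5 and 78.4 in siCTRL + IFNγ, against 48.6, 54.5 and 48.7 in siMITF and 48.1, 55.4 and 55.5 with siMITF + IFNγ. The siMITF libraries lay below the siCTRL libraries with and without IFNγ (log2 fold change -0.60 ± 0.11, adjusted p = 0.00109, and -0.52 ± 0.11 with IFNγ). Its IFNγ differences were -0.02 ± 0.11 and 0.06 ± 0.11, with overlapping libraries. HK1 therefore took 46.4% ± 1.78 of the summed TPM of both hexokinases in siCTRL and 63.8% ± 0.712 in siCTRL + IFNγ, against 56.6% ± 0.953 in siMITF and 70.0% ± 2.24 with siMITF + IFNγ. In siCTRL alone HK2 was the more abundant isozyme, in all 3 libraries.

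GPI, which turns glucose 6-phosphate into fructose 6-phosphate, was lower with siMITF, at 173 ± 11.2 against 232 ± 12.9 TPM (log2 fold change -0.42 ± 0.10, adjusted p = 0.00720, and -0.48 ± 0.10 with IFNγ). Phosphofructokinase catalyses the committed step. Its platelet isozyme PFKP was lower with siMITF in both backgrounds, while PFKL and PFKM did not pass in any comparison. PFKP stood at 58.6, 62.0 and 59.6 TPM in siCTRL and 59.3, 70.2 and 66.4 in siCTRL + IFNγ, against 36.3, 42.1 and 37.5 in siMITF and 37.5, 49.6 and 51.9 with siMITF + IFNγ. The libraries did not overlap between siMITF and siCTRL, and the fold changes were -0.62 ± 0.11 (adjusted p = 0.00106) and -0.50 ± 0.11 with IFNγ. With the replicate block PFKP was also higher with IFNγ in siMITF cells (0.24, adjusted p = 0.0322 against 0.159 without it), and PFKM was lower in the combination (-0.26, 0.0337 against 0.232). The share of PFKP among the phosphofructokinases was 32.2% ± 1.32 in siCTRL and 36.6% ± 3.04 in siCTRL + IFNγ, against 24.1% ± 0.525 in siMITF and 29.5% ± 1.15 with siMITF + IFNγ.

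**Figure D2:**
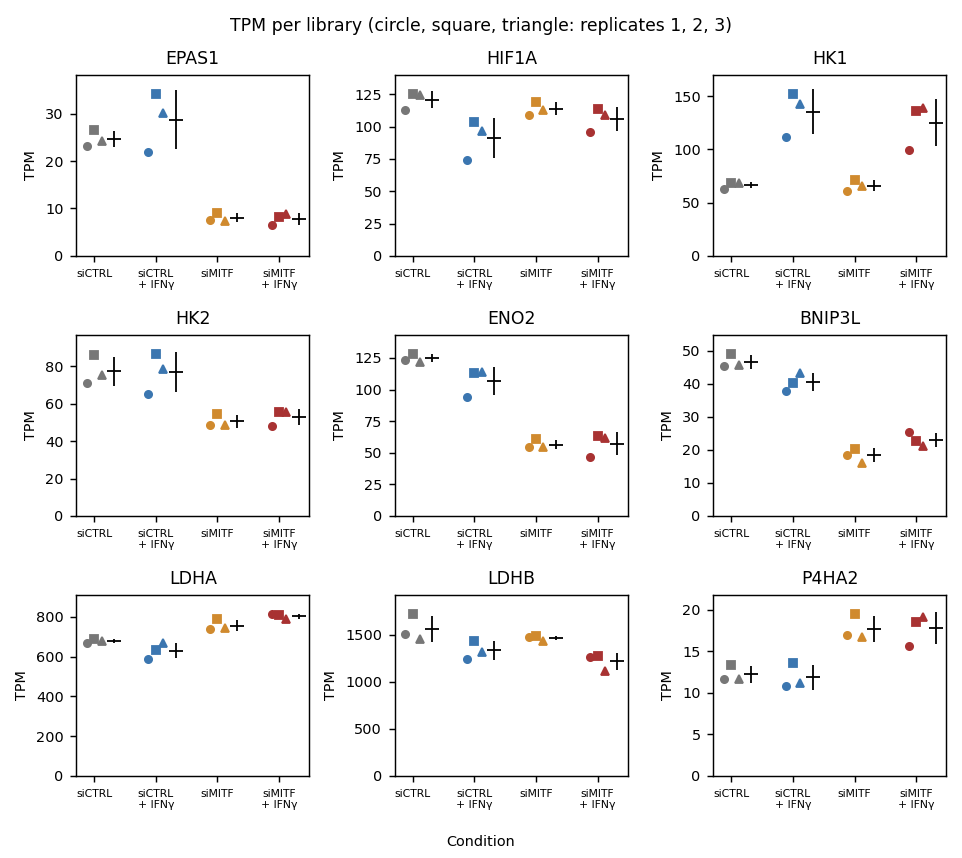
TPM of 9 genes in each library (points, by condition) with the mean and SD (n = 3) beside them. EPAS1, HK2, ENO2 and BNIP3L are lower and P4HA2 higher in the siMITF conditions, HK1 is higher in both IFNγ conditions, and LDHA is highest in siMITF + IFNγ while LDHB has its lowest mean there.

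Aldolase cleaves fructose 1,6-bisphosphate. ALDOC, the brain-type isozyme, stood at 32.5, 32.9 and 30.4 TPM in siCTRL and 29.8, 33.4 and 33.5 in siCTRL + IFNγ, against 18.1, 21.1 and 20.9 in siMITF and 17.6, 21.3 and 22.4 with siMITF + IFNγ. All 6 siMITF libraries lay below all 6 siCTRL libraries (log2 fold change -0.65 ± 0.10, adjusted p = 0.000298, and -0.64 ± 0.10 with IFNγ). ALDOA, the major isozyme, was at 1825 ± 77.1 TPM in siCTRL and 1594 ± 73.9 in siMITF. Its difference did not pass, but did with the replicate block (-0.20, adjusted p = 0.0359 against 0.0691, and -0.19, 0.0393 against 0.0758 with IFNγ). Counting the block, it passed in 7 alternatives without IFNγ and 3 with IFNγ. ALDOC made up 1.72% ± 0.0729 of aldolase TPM in siCTRL and 1.24% ± 0.0745 in siMITF.

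The enzymes of the later steps of the pathway are among the most abundant RNAs of the cell and changed by smaller steps. GAPDH, which oxidises glyceraldehyde 3-phosphate and served the study as its qPCR reference gene, stood at 3288, 3253 and 3302 TPM in siCTRL and 3073, 3217 and 3190.1 in siCTRL + IFNγ, against 2449.8, 2673 and 2805 in siMITF and 2313, 2527 and 2806 with siMITF + IFNγ. It was lower in all siMITF libraries than in all siCTRL libraries of the same treatment, by -0.31 ± 0.07 on the log2 scale (adjusted p = 0.00504) and by -0.31 ± 0.07 with IFNγ (0.00532), and this direction and call held under all 29 alternatives. PGK1, which makes ATP from 1,3-bisphosphoglycerate, was lower with siMITF without IFNγ (log2 fold change -0.24 ± 0.07, adjusted p = 0.0229), a call lost without siCTRL replicate 2 or siMITF replicate 1 or 3. TPI1, ENO1 and PKM did not pass for siMITF or for IFNγ, although with the block PKM was higher in siMITF + IFNγ than in siCTRL + IFNγ (0.21, adjusted p = 0.0391 against 0.299), ENO1 was lower with IFNγ in siCTRL cells (-0.25, 0.00574 against 0.104) and with IFNγ in siMITF cells (-0.22, 0.00956 against 0.123), and TPI1 was lower in the latter comparison (-0.17, 0.0240 against 0.212).

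PGAM1, the phosphoglycerate mutase, was lower with IFNγ. Its libraries stood at 631, 677 and 636 TPM in siCTRL and 495, 605 and 571 in siCTRL + IFNγ, against 622, 639 and 636 in siMITF and 476, 564 and 555 with siMITF + IFNγ. The IFNγ libraries lay below those without IFNγ in both backgrounds. In siMITF cells the change passed narrowly (log2 fold change -0.25 ± 0.08, adjusted p = 0.04997) and was lost in 16 of 29 alternatives, among them leaving out any 1 siCTRL or siMITF library, siCTRL + IFNγ replicate 3 or siMITF + IFNγ replicate 1 or 3. In siCTRL cells it did not pass, but did with the block (-0.22, adjusted p = 0.0139 against 0.109), which was 1 of 7 such alternatives.

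Enolase makes phosphoenolpyruvate. ENO2, the neuronal isozyme, at chr12:6913745-6923698, stood at 124, 128 and 122 TPM in siCTRL and 94.1, 113 and 113 in siCTRL + IFNγ, against 54.3, 60.5 and 54.4 in siMITF and 46.6, 63.0 and 61.9 with siMITF + IFNγ. No siMITF library reached the lowest siCTRL library. The mean went from 125 ± 3.12 to 56.4 ± 3.53 TPM without IFNγ (log2 fold change -1.13 ± 0.11, adjusted p = 7.42e-06) and from 107 ± 11.1 to 57.2 ± 9.20 with IFNγ (log2 fold change -0.90 ± 0.11, adjusted p = 5.75e-05). ENO1 was many times more abundant throughout, and ENO2 supplied 3.31% ± 0.0855 of enolase TPM in siCTRL and 1.58% ± 0.103 in siMITF.

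Lactate dehydrogenase is a tetramer of LDHA and LDHB subunits, of which LDHA is the HIF-responsive one. LDHA stood at 670.1, 689 and 676 TPM in siCTRL and 589.6, 634 and 666 in siCTRL + IFNγ, against 738, 787 and 741 in siMITF and 814, 807 and 788 with siMITF + IFNγ. The highest values were in siMITF + IFNγ, and the siMITF libraries lay above the siCTRL libraries in both backgrounds. The difference was 0.35 ± 0.06 with IFNγ (adjusted p = 0.000534). Without IFNγ it was 0.15 ± 0.06 and did not pass, but did with the block (adjusted p = 0.0262 against 0.0579), which was 1 of 7 such alternatives.

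LDHB moved the other way under the combination. Its values were 1504, 1718 and 1452 TPM in siCTRL and 1243, 1436 and 1314 in siCTRL + IFNγ, against 1472, 1479 and 1435 in siMITF and 1263, 1271 and 1115 with siMITF + IFNγ. IFNγ lowered it in siMITF cells (log2 fold change -0.27 ± 0.08, adjusted p = 0.0326), a call lost without any 1 of the 3 siMITF libraries or without siMITF + IFNγ replicate 3. In siCTRL cells LDHB did not pass for IFNγ, but did with the block (-0.23, adjusted p = 0.0141 against 0.0878), which was 1 of 6 such alternatives. LDHA was also lower there, with libraries that did not overlap (-0.11 ± 0.06, adjusted p = 0.269). In siMITF + IFNγ against siCTRL, LDHA was higher (log2 fold change 0.24 ± 0.06, adjusted p = 0.00480) and LDHB lower (log2 fold change -0.36 ± 0.08, adjusted p = 0.00309), and both calls held under all 29 alternatives. LDHA took 30.4% ± 1.61 of their summed TPM in siCTRL and 32.2% ± 1.51 in siCTRL + IFNγ, against 34.1% ± 0.657 in siMITF and 39.8% ± 1.40 with siMITF + IFNγ.

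**Figure D3:**
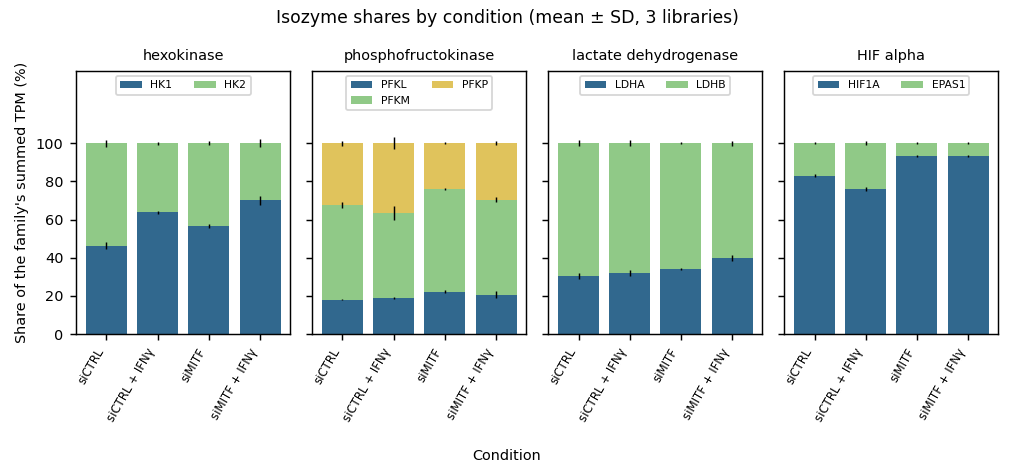
Share of each isozyme in the summed TPM of its family, by condition (bars, mean with SD over 3 libraries). HK1 is at 46.4% of hexokinase TPM in siCTRL and 70.0% in siMITF + IFNγ, LDHA at 30.4% and 39.8% of lactate dehydrogenase, and EPAS1 at 16.9% and 6.86% of the HIF alpha subunits.

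Summed over the 17 enzymes from hexokinase to lactate dehydrogenase, glycolytic RNA was 15831 ± 584 TPM in siCTRL (SD, n = 3), 14463 ± 1050.1 in siCTRL + IFNγ, 14725 ± 583 for siMITF and 13603 ± 1233 for siMITF + IFNγ. The conditions overlapped library by library except that every siCTRL library exceeded every other library. The lowest sum, 12187 TPM, was in siMITF + IFNγ replicate 1, which also had the highest mitochondrial share. Over the RNA that is not mitochondrial, the share of these enzymes was 1.84% ± 0.0272 in siCTRL, 1.71% ± 0.0764 in siCTRL + IFNγ, 1.71% ± 0.0587 for siMITF and 1.63% ± 0.123 for siMITF + IFNγ. Single genes were also tested with TPM recomputed without mitochondrial genes, where, without IFNγ, siMITF changed 18 genes, among them EPAS1, HK2, GPI, PFKP, ALDOC, GAPDH, ENO2 and PFKFB3, while 5 instead of 3 genes passed for IFNγ in siCTRL cells. Of all 13032 IDs tested that way, 5461 and 2354 passed in these comparisons. No test was made of the sum.

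Regulatory kinases sit beside the pathway. PFKFB3 makes fructose 2,6-bisphosphate, the activator of phosphofructokinase. It stood at 18.1, 25.4 and 24.4 TPM in siCTRL and 14.1, 20.8 and 19.2 in siCTRL + IFNγ, against 12.6, 13.1 and 12.3 in siMITF and 7.46, 11.7 and 12.3 with siMITF + IFNγ. Its siMITF libraries lay below the siCTRL libraries in both backgrounds (log2 fold change -0.77 ± 0.19, adjusted p = 0.00627, and -0.74 ± 0.19 with IFNγ), and the combination was the lowest (-1.05 ± 0.19 against siCTRL, adjusted p = 0.000578). PFKFB4, a related enzyme, was at 6.12 ± 0.768 TPM in siCTRL, 4.68 ± 0.587 in siMITF and 6.56 ± 1.04 in siMITF + IFNγ. Neither difference passed, but both did with the block (siMITF, -0.32, adjusted p = 0.0235 against 0.0848, and IFNγ in siMITF cells, 0.41, 0.0104 against 0.0533). Counting the block, they passed in 8 and 11 alternatives.

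PDK1 and PDK3 phosphorylate and inhibit pyruvate dehydrogenase. PDK1 was lower with siMITF, at 8.90 ± 0.577 against 13.1 ± 2.26 TPM (log2 fold change -0.49 ± 0.15, adjusted p = 0.0206), a call lost without siCTRL replicate 2 or 3 or siMITF replicate 1 or 3. With IFNγ it did not pass, but did with the block (-0.38, adjusted p = 0.0112 against 0.0685), which was 1 of 9 such alternatives. PDK3 was lower in the combination (log2 fold change -0.31 ± 0.11, adjusted p = 0.0404, a call lost in 11 of 29 alternatives, among them leaving out any 1 siCTRL library, siCTRL + IFNγ replicate 3, siMITF replicate 3 or siMITF + IFNγ replicate 1 or 3) and, with the block, with IFNγ in siMITF cells (-0.23, 0.0367 against 0.183). Among 10 other genes of the pyruvate dehydrogenase complex and its regulators, PDP1, the phosphatase that reactivates the complex, rose with each treatment, from a mean of 31.2 TPM in siCTRL to 72.0 with IFNγ, 90.4 with siMITF and 176 with both (log2 fold change 2.46 ± 0.16, adjusted p = 6.43e-08 for both). PDK4, a kinase that opposes it, was lower with IFNγ (-0.96 ± 0.08 with siCTRL, -0.29 ± 0.08 with siMITF), and the IFNγ effects differed between backgrounds (interaction 0.67 ± 0.11, adjusted p = 0.0111).

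Secreted and membrane proteins of the hypoxia response did not move together. VEGFA, the endothelial growth factor, stood at 26.1, 32.6 and 28.4 TPM in siCTRL and 20.8, 25.1 and 20.0 in siCTRL + IFNγ, against 28.2, 31.5 and 27.8 in siMITF and 24.4, 28.1 and 26.5 with siMITF + IFNγ. IFNγ lowered it in siCTRL cells (log2 fold change -0.39 ± 0.11, adjusted p = 0.0350), where the libraries did not overlap. In siMITF cells its IFNγ difference was -0.14 ± 0.11 and did not pass. The difference between these effects did not pass either (interaction 0.25 ± 0.15, adjusted p = 0.830). The siCTRL call was lost without siCTRL replicate 2 or 3, without siCTRL + IFNγ replicate 1 or 3, or without siMITF replicate 1 or 3. siMITF left VEGFA at 0.01 ± 0.11 without IFNγ. With IFNγ it did not pass, but was higher with the block (0.26, adjusted p = 0.00781 against 0.0911), which was 1 of 8 such alternatives.

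ADM encodes adrenomedullin, a vasodilator peptide. It stood at 18.6, 18.3 and 16.2 TPM in siCTRL and 19.6, 18.5 and 18.4 in siCTRL + IFNγ, against 13.7, 14.0 and 13.9 in siMITF and 13.4, 13.1 and 13.0 with siMITF + IFNγ. Its siMITF libraries lay within a narrow range below all siCTRL libraries (log2 fold change -0.33 ± 0.08, adjusted p = 0.00543, and -0.49 ± 0.08, adjusted p = 0.000398, with IFNγ). The carbonic anhydrases CA9 and CA12, which are strongly hypoxia-inducible in many tumours, were below the filter. CA9 was listed at 0 in 8 of 12 libraries, with its highest value of 0.561 TPM in siMITF + IFNγ replicate 2, and CA12 did not exceed 0.129 TPM.

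Mitophagy and stress genes included the largest fall after EPAS1 for siMITF without IFNγ. BNIP3L, a mitochondrial receptor for mitophagy, stood at 45.3, 49.1 and 45.6 TPM in siCTRL and 37.8, 40.3 and 43.3 in siCTRL + IFNγ, against 18.5, 20.4 and 16.1 in siMITF and 25.4, 22.7 and 21.3 with siMITF + IFNγ. All 6 siMITF libraries lay below all 6 siCTRL libraries (log2 fold change -1.31 ± 0.10, adjusted p = 6.13e-07, and -0.78 ± 0.10 with IFNγ). In siMITF cells IFNγ raised it (log2 fold change 0.32 ± 0.10, adjusted p = 0.0369), while in siCTRL cells its IFNγ difference was -0.20 ± 0.10. The difference between these effects was 0.52 ± 0.14 and did not pass (adjusted p = 0.150). The IFNγ call in siMITF cells was lost without siCTRL replicate 1 or 3, siMITF replicate 1 or 3, or siMITF + IFNγ replicate 1 or 2.

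BNIP3, its paralogue, was at 42.2 ± 5.41 TPM in siCTRL and 41.9 ± 1.37 in siMITF and did not pass in any comparison. BNIP3 has 44 pseudogenes by symbol, which held 5.87% of the TPM summed over the gene and its pseudogenes, so reads could be split between them. ANKRD37, a small ankyrin repeat protein, stood at 23.2, 22.9 and 19.2 TPM in siCTRL and 23.4, 21.3 and 19.0 in siCTRL + IFNγ, against 14.5, 14.6 and 15.0 in siMITF and 20.2, 19.3 and 19.0 with siMITF + IFNγ. It was lower in all siMITF libraries without IFNγ than in all other libraries (log2 fold change -0.54 ± 0.10, adjusted p = 0.000892), and IFNγ raised it in siMITF cells (log2 fold change 0.39 ± 0.10, adjusted p = 0.0131). With IFNγ the siMITF difference was -0.11 ± 0.10 and did not pass, but the interaction was not past the test either (0.42 ± 0.14, adjusted p = 0.307). NDRG1, a stress-responsive gene, was at 5.08 ± 1.16 TPM in siCTRL and 7.57 ± 0.576 in siMITF. It did not pass, but did with the block (0.51, adjusted p = 0.00653 against 0.0925, and with IFNγ 0.38, 0.0299 against 0.205, and in the combination 0.52, 0.00466 against 0.0731). Counting the block, it passed in 7, 4 and 10 alternatives in these comparisons.

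Among the oxygen-dependent dioxygenases, P4HA2 and EGLN3 were higher with siMITF in both backgrounds. P4HA2, a collagen prolyl hydroxylase, stood at 11.7, 13.4 and 11.6 TPM in siCTRL and 10.8, 13.6 and 11.2 in siCTRL + IFNγ, against 16.9, 19.5 and 16.7 in siMITF and 15.6, 18.6 and 19.2 with siMITF + IFNγ. All 6 siMITF libraries lay above all 6 siCTRL libraries (log2 fold change 0.50 ± 0.11, adjusted p = 0.00447, and 0.55 ± 0.11, adjusted p = 0.00254, with IFNγ), and this held under all 29 alternatives. EGLN3, a HIF prolyl hydroxylase that is itself HIF-induced, was low, at 1.44 ± 0.221 TPM in siCTRL and 2.29 ± 0.154 in siMITF. It reached the filter of 2 TPM in siMITF alone, the condition where it was highest, so its entry into the test depended on that condition. It was higher with siMITF without IFNγ (log2 fold change 0.43 ± 0.15, adjusted p = 0.0364) and with IFNγ (log2 fold change 0.50 ± 0.15, adjusted p = 0.0205), but these calls were lost in 12 of 28 and 7 of 27 alternatives, among them leaving out siCTRL replicate 1 or 3 or any 1 siMITF library for the first and replicate 1 or 2 of siCTRL + IFNγ or replicate 1 or 3 of siMITF + IFNγ for the second. P4HA1, the paralogue of P4HA2, and KDM3A, a histone demethylase, did not pass in any comparison.

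The design also allows the IFNγ effect to be compared between siMITF and siCTRL cells. Of the 33 genes, 0 passed for this interaction, where 0.947% of all tested IDs did. At an unadjusted p under 0.05 there were 4 (BNIP3L, ANKRD37, LDHA and PFKFB4), against 7.67% of all IDs. The replicate block also gave 0 past the adjusted threshold, beside 276 of 12773 IDs. All 4 interactions were positive, from 0.20 for LDHA to 0.52 for BNIP3L. For HK1, the largest IFNγ response, the interaction was -0.11 ± 0.19.

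ENO1, PGAM1 and ALDOA, like LDHA, LDHB and PDK3, passed in the combination but not for siMITF alone or for IFNγ in siCTRL cells. The interactions of ENO1, PGAM1 and ALDOA were 0.03 ± 0.13, -0.03 ± 0.12 and 0.003 ± 0.11 and did not pass. These calls therefore do not show more than the sum of the single effects. With the block ENO1 and PGAM1 passed for IFNγ in siCTRL cells (adjusted p = 0.00574 and 0.0139), and ALDOA for siMITF without IFNγ (0.0359). In siMITF + IFNγ against siCTRL, ENO1 was -0.27 ± 0.09 (adjusted p = 0.0304), PGAM1 -0.29 ± 0.08 (0.0139) and ALDOA -0.20 ± 0.08 (0.0493). The ALDOA call was lost in 20 of 29 alternatives, among them leaving out any 1 library other than siMITF + IFNγ replicate 2 or 3, that of PGAM1 without siCTRL replicate 2, and that of ENO1 in 8, including without siCTRL replicate 2 or 3 or siMITF + IFNγ replicate 1. With the block TPI1 and PGK1 passed in the combination as well (-0.22, adjusted p = 0.00344 against 0.0709, and -0.16, 0.0302 against 0.0926). PGK1 had already passed for siMITF alone (adjusted p = 0.0229). With the block TPI1 also passed for IFNγ in siMITF cells (0.0240). HK1 (0.88 ± 0.14), P4HA2 (0.51 ± 0.11) and LDHA were the 3 genes higher in the combination.

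Other genes of these pathways were taken from lists written for this work. Of 60 further HIF target genes 45 were tested, and siMITF lowered 13 and raised 8, beside 13.8% and 21.0% of all IDs, with a median of -0.05 beside 0.06. Among the 45, FLT1 and TGFA reached 2 TPM in siMITF alone, and LOXL2 in the siMITF conditions alone. Their entry into the test depended on conditions where they were high, so they are no independent support. The largest fall was in BHLHE41, a circadian repressor, from 67.0 to 5.07 TPM (-3.52 ± 0.16), followed by CSRP2 (-1.58 ± 0.06), and the largest rises were in the metallothioneins MT2A (1.85 ± 0.06) and MT1X (1.30 ± 0.08). IFNγ raised 6 and lowered 3 in siCTRL cells (6.80% and 6.14% of all IDs, and 8 and 7 genes with the replicate block, where 3281 of 12773 IDs passed), with MAFF (1.32 ± 0.13), MT2A (0.97 ± 0.06) and the adenylate kinase AK4 (0.94 ± 0.11) in the lead.

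Of 12 tested glucose, lactate and pyruvate transporter genes, siMITF raised 3 and lowered 3 (21.0% and 13.8% of all IDs), and IFNγ raised 2 and lowered 1 in siCTRL cells (6.80% and 6.14%, and 3 and 3 genes with the block, where 3281 of 12773 IDs passed). The glucose transporter SLC2A1 and BSG, a partner of lactate transporters, did not pass for siMITF, but were higher with the block (adjusted p = 0.00843 against 0.158, and 0.0163 against 0.0982). SLC16A6, a monocarboxylate transporter family member, fell from 209 to 71.7 TPM with siMITF (-1.53 ± 0.09). The glucose transporter SLC2A3 rose with IFNγ (0.72 ± 0.12 with siCTRL, 1.09 ± 0.12 with siMITF). Of 11 tested other glycolytic enzymes, siMITF raised 3 and lowered 2 (21.0% and 13.8% of all IDs). Of the lowered genes, the pyruvate kinase gene PKLR reached 2 TPM in siCTRL + IFNγ alone. In siCTRL cells IFNγ raised 1 of the 11 and lowered 0 (6.80% and 6.14% of all IDs). The raised gene was BPGM, the bisphosphoglycerate mutase (0.76 ± 0.08). Of 20 tested genes of the pentose phosphate and side branches, siMITF lowered 6 and raised 3 (13.8% and 21.0% of all IDs). Among the 20, GFPT2 reached 2 TPM in siMITF alone and GPD2 in the siCTRL conditions alone, so their entry depended on conditions where they were high. The serine synthesis enzymes PSAT1 (-1.23 ± 0.09) and PHGDH (-1.27 ± 0.13) had the largest falls of that list in the combination.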

How the data were processed

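RNA from 12 libraries of 624Mel cells was sequenced, 3 per condition. The authors trimmed reads with Trimmomatic and quantified them with kallisto on the Ensembl GRCh38 transcriptome, and deposited a TPM value for every gene ID in every library. Counts and depth are not given, so no counting interval was computed. TPM were used as log2(TPM + 1). IDs averaging 2 TPM or more in some condition were tested with limma 3.58.1 (R 4.3.3) in 1 fit of all 12 libraries, with an intensity trend, two-sided, with Benjamini-Hochberg adjustment. The methods state independent biological replicates, but the labels do not say what a replicate number shares. Libraries with the same number deviated from their condition means together (correlation over 0.1 in 18 of 18 pairs, median 0.279, against -0.196 for different numbers), so the number was taken to pair them, and a fit with it as a block was run. Symbols and positions are from GENCODE 44. Promoters are from RefSeq (GRCh38.p14), 1 per gene, nearest the Ensembl canonical start.

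Values by library were given for up to 6 genes with the smallest adjusted p among those past the test in each comparison, and for HIF1A, EPAS1, VEGFA and GAPDH. HK2 and P4HA2 were added after their values were seen. The members and lists were chosen with earlier results of these data known. The fit was run on simulated data in which all libraries varied independently. That run therefore cannot judge the fit for libraries of the same number that deviate together. Alternatives were other pseudocounts, filters, scalings, removal of length and GC trends, the block, and each library left out. The block with TPM free of mitochondrial genes, and all replicate 1 libraries left out, were added after seeing the data. The authors' DESeq2 comparisons were not used here.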

Additional observations from a re-analysis of the deposited data

Results flagged for a closer look

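For 5 genes of the further lists the IFNγ effect differed between siMITF and siCTRL cells by the limma interaction term, which 0.947% of all tested IDs passed. Means are given for siCTRL, siCTRL + IFNγ, siMITF and siMITF + IFNγ. MT2A, a metallothionein, averaged 197, 386, 711 and 939.7 TPM in that order (interaction -0.56 ± 0.09, adjusted p = 0.00929), and its IFNγ fold was smaller in siMITF cells. GAPDHS, the testis-type paralogue of GAPDH, averaged 5.37, 6.43, 4.99 and 2.92 TPM in that order (interaction -0.83 ± 0.16, adjusted p = 0.0324) and was lowest under the combination. PDK4, an inhibitory kinase of pyruvate dehydrogenase, averaged 303, 156, 265 and 217 TPM in that order (interaction 0.67 ± 0.11, adjusted p = 0.0111), with the smaller IFNγ fall in siMITF cells. Among the IFNγ response genes, the guanylate-binding protein gene GBP2 averaged 3.32, 100.4, 3.804 and 218 TPM in that order (interaction 0.93 ± 0.19, adjusted p = 0.0372). IRF9, a subunit of an interferon-activated transcription factor, averaged 7.93, 41.2, 4.51 and 38.9 TPM in that order (interaction 0.61 ± 0.13, adjusted p = 0.0448). Both had the larger IFNγ fold in siMITF cells. With the replicate block all 5 interactions also passed, as did those of SLC16A6, PHGDH, GBP1, TAP1, WARS1 and B2M.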

How the results depend on the processing

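Of the 15 genes past the test for siMITF, 12 held under every alternative, as did 12 of 13 with IFNγ, 14 of 19 for the combination, but only 1 of 3 and 1 of 5 (HK1 in each) for IFNγ in siCTRL and siMITF cells. Counts for siMITF and the combination stayed within 1.5 times their value except that removal of length and GC trends with the replicate block gave 23 instead of 13 for siMITF with IFNγ. The 3 genes for IFNγ in siCTRL cells became 1 without a filter on low values, with only the conditions compared or at an adjusted p under 0.01, 5 with median centring or with TPM free of mitochondrial genes, 6 with the replicate block, 7 with both of the latter, 10 with length and GC trends removed and 13 with those removed and the block. Leaving out 1 library gave 1 to 5, with 1 without siCTRL replicate 2 or 3 or siCTRL + IFNγ replicate 1, and 5 without siCTRL + IFNγ replicate 2. Of all 12773 IDs, 868 were higher and 784 lower, while 2814 passed with median centring and 3281 with the block. Without mitochondrial genes 2354 of 13032 passed, and with length and GC trends removed 3312 of 11957. The 5 genes for IFNγ in siMITF cells became 2 without a filter, 3 with only the conditions compared, 1 at an adjusted p under 0.01, 10 with the block, 8 with the block and no mitochondrial genes, 8 with length and GC trends removed and 12 with those and the block. Leaving out 1 library gave 2 to 6, with 2 without siMITF replicate 1 or 3. Of all 12773 IDs, 1020 were higher and 1554 lower in this comparison, while 4556 passed with the block. With length and GC trends removed 4269 of 11957 passed. Leaving out all replicate 1 libraries gave 15, 13, 3, 4 and 17 genes for siMITF, siMITF with IFNγ, IFNγ in siCTRL cells, IFNγ in siMITF cells and the combination. The interaction count of 0 became 3 with length and GC trends removed and the block (PFKFB4, VEGFA and BNIP3L) and 1 with the block and no mitochondrial genes (BNIP3L). The cause of these shifts was not tested. The replicate block changed no call among the genes of the set beyond those given with them, and it took the further lists mostly to more calls, as from 1 to 6 of 10 genes of pyruvate dehydrogenase and its regulators with siMITF. Of all 12773 IDs, 6094 passed for siMITF with the block, beside 2684 higher and 1764 lower without it. The depth of the libraries is unknown, and 3 libraries per condition set the smallest difference that could pass. Pseudogenes, matched by symbol, held at most 5.87% of the TPM summed over a gene of the set and its pseudogenes.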

Other observations

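Among enzymes and transporters beside the core pathway, siMITF moved several in opposite directions. TIGAR, a bisphosphatase that opposes PFKFB3, was lower with siMITF (-0.56 ± 0.13), while ENO3, the muscle enolase (0.61 ± 0.17), and the phosphoglucomutase PGM1 (0.51 ± 0.14) were higher. SLC16A4, a monocarboxylate transporter family member, was raised by siMITF (1.00 ± 0.11) and by IFNγ in siCTRL cells (0.40 ± 0.11), and averaged 28.6 TPM with both treatments against 11.4 in siCTRL.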
